A study of Homo sapiens with 18 samples.

Results

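The comparison set 4 poly(A) RNA libraries of DLD1 cells labelled ZNF692 knockout against 3 libraries of DLD1 cells with a control guide. The 7 libraries were selected on the levels of VIM, SPARC and collagen transcripts out of 9 poly(A) libraries, in a series of 18 libraries whose other 9 were counted over ribosomal RNA. DLD1 is an established human colorectal adenocarcinoma cell line. All cells had been infected with lentivirus, kept from 48 h after infection under puromycin at 10 µg/ml, and grown in DMEM with 5% serum, and 1 µg of total RNA entered each library. The control group, sgC, is labelled wild type and had replicates 1, 2 and 3. The knockout groups carried 1 of 2 guides against ZNF692: sgZ1, with replicates 1 and 3 kept, and sgZ3, with replicates 1 and 2 kept. The labels do not say whether a group was a clone or a pool of infected cells, or whether each replicate was grown on its own. Every p-value here therefore speaks only of the spread among these 7 libraries, and that spread may be technical. Both guides were weighed equally, whatever the size of the change with either.

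ZNF692 is a zinc-finger protein that has been linked to the nucleolus and to the making of the small ribosomal subunit. Ribosomes are assembled in the nucleolus, where RNA polymerase I transcribes the ribosomal RNA precursor and a large set of assembly factors, together with small nucleolar ribonucleoproteins, trims, modifies and folds it around the ribosomal proteins. In colorectal cancer cells this programme is high and is driven in large part by the transcription factor MYC, which binds E-box sequences in the promoters of growth genes.

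The left-out libraries, sgZ1 replicate 2 and sgZ3 replicate 3, were set aside on the transcripts of mesenchymal genes, so the values that follow chose the libraries and carry no test. VIM, the intermediate filament of mesenchymal cells, reached 22.9 and 21.1 CPM (counts scaled to library size) there and 0.108 to 1.22 CPM in the 7 that were kept. SPARC, a secreted matrix glycoprotein, was at 64.2 and 66.7 CPM against 3.72 to 5.91 CPM. COL1A1, a chain of type I collagen, was at 12.1 and 15.2 CPM against 0.217 to 1.40 CPM, and the mesenchymal cadherin CDH11 at 7.48 and 7.65 CPM against 0 to 0.0492 CPM. In each of these genes the left-out libraries lay above every kept one, at close to the same level in both. Summed over a list of 44 mesenchymal and matrix genes, CPM was 694.4 and 681.0 in the left-out libraries, 382.6 to 398.5 in sgC, 483.9 and 564.0 in the kept sgZ1 libraries and 346.4 and 360.1 in the kept sgZ3 libraries. The kept sgZ1 libraries were thus not low in every gene of the list. TPM2, a tropomyosin, reached 43.1 and 56.2 CPM in them against 0.128 to 0.243 in sgC, and the collagen chain COL6A1 30.8 and 36.2 against 0.724 to 0.876. Of the 44 genes, 5 were at 0 in all 7 kept libraries and 12 were above 1 CPM in all of them.

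**Figure D1:**
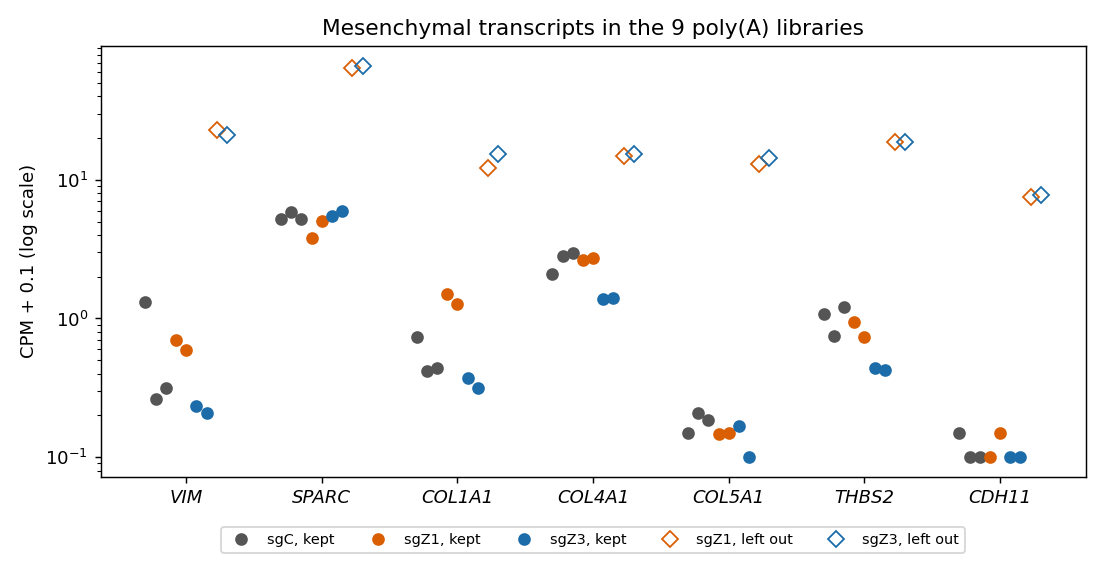
CPM plus 0.1 on a log axis for 7 mesenchymal genes, 1 point per poly(A) library, coloured by guide; open diamonds are the left-out libraries. The left-out libraries sit above the kept ones in all 7 genes, with SPARC at 64.2 and 66.7 CPM.

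Kept libraries held 16044224 to 22111364 counts. Of 15 colorectal epithelial markers, among them EPCAM, KRT8 and CDX2, 14 were above 1 CPM in all 7 libraries, and summed leukocyte markers stayed at 6.31 to 7.69 CPM. Summed endothelial markers were at 36.1 and 42.9 CPM in sgZ1, 17.3 to 18.6 in sgC and 20.8 and 22.5 in sgZ3. EGFL7, of that list, was at 26.4 and 33.4 CPM in sgZ1 and 8.05 to 9.68 in sgC. Summed markers of embryonic kidney packaging cells were at 10.7 and 9.15 CPM in sgZ1, 6.815 to 9.0 in sgC and 5.68 and 4.01 in sgZ3. PAX2, of that list, was at 2.61 and 2.95 CPM in sgZ1 and 0 to 0.0535 in sgC. In a principal component analysis, the first component took 62.2% of the variance and separated the sgZ1 libraries (68.6 and 70.0) from sgC (-18.8 to -16.0) and sgZ3 (-42.8 and -44.0). The second component, with 25.6%, separated sgC (25.1 to 35.1) from all 4 knockout libraries (-36.1 to -3.35). With the left-out libraries gone, the common biological coefficient of variation fell from 12.7% to 7.11%. Libraries that stood apart were removed because of their values, so the choice itself lowers the estimated spread on which the p-values rest.

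The targeted gene's own mRNA was above the controls in both knockout groups, not below them. ZNF692 lies at chr1:248850006-248859144 (GRCh38, GENCODE 29, minus strand, protein coding). It measured 7.13, 6.42 and 6.31 CPM in sgC, 9.86 and 11.5 in sgZ1 and 7.8 and 7.97 in sgZ3. Every sgZ1 and sgZ3 library lay above every sgC library, and the log2 fold change over both guides was 0.47 (SE 0.11, adjusted p = 0.00131). With sgZ1 it was 0.69 (SE 0.13, adjusted p = 1.29e-04) and with sgZ3 0.25 (SE 0.14, adjusted p = 0.127). With the 4 knockout libraries as 1 group the value was 0.515 at an adjusted p of 0.085. A transcript count does not show whether the reading frame is cut, so it does not check the labels.

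Over both guides 7409 of 14923 tested genes (49.6%) differed from sgC at a false discovery rate under 0.05 in edgeR's quasi-likelihood test, 3442 higher (23.1%) and 3967 lower (26.6%). Past 2-fold, 350 were higher and 341 lower. The split leaned on the scaling: with library totals alone in place of TMM factors, 35.2% of the calls were higher, against 46.5%, while RLE factors gave 52.5% and DESeq2 54.9%. With sgZ1 5894 genes (39.5%) were called, 22.0% of all higher and 17.5% lower. With sgZ3 8246 (55.3%) were called, 23.9% higher and 31.3% lower. The median log2 fold change over all tested genes was -0.0322 over both guides, 0.00154 with sgZ1 and -0.0961 with sgZ3. In 1 direction with each guide, and over both, 2612 genes (17.5%) were called, 1194 higher (8.0%) and 1418 lower (9.5%). All 4 knockout libraries lay above all 3 controls in 1954 genes (13.1%) and below them in 2434 (16.3%). The guides were fitted as separate groups, so a difference between them does not enter the error. When the 4 knockout libraries were fitted as 1 group, which puts the gap between guides into the error, 1064 genes were called.

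**Figure D2:**
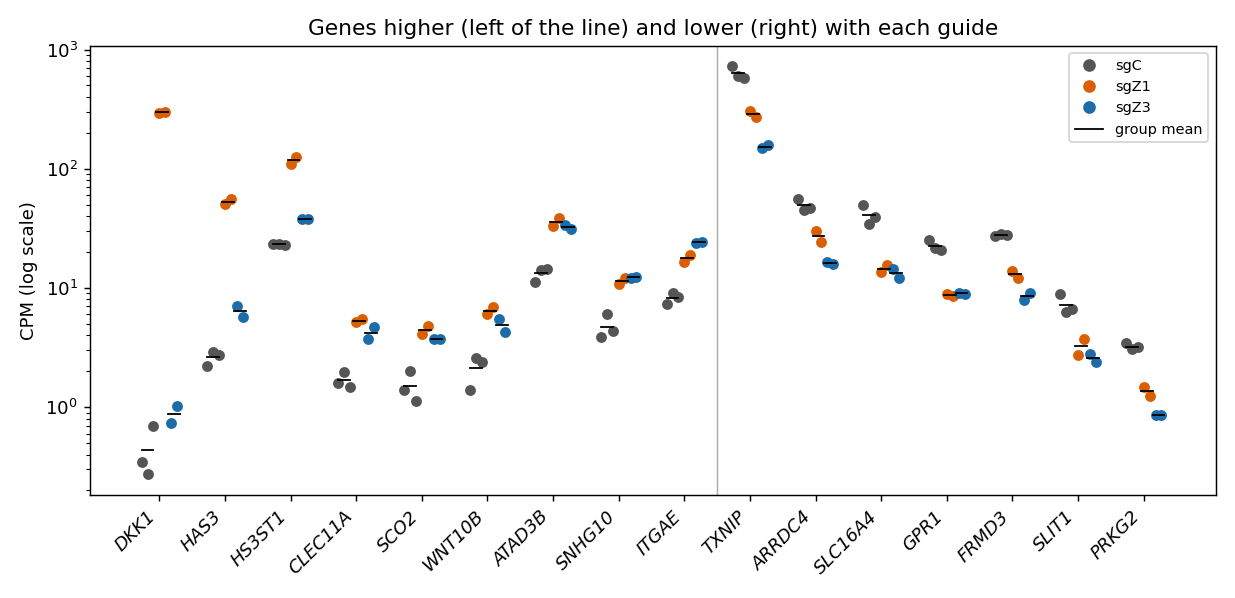
CPM on a log axis in each of the 7 libraries, with bars at the group means, for genes higher (left) and lower (right) with each guide. TXNIP runs from 582 to 724 CPM among the controls and from 148 to 308 CPM among the knockout libraries.

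The genes named as highest or lowest were the 15 at each end among those called in 1 direction over both guides and with each, with a mean level of 2 CPM or more and no overlap of libraries (1143 and 1265 genes qualified). Of the highest 15, 5 did not differ between guides past the threshold. ATAD3B, a mitochondrial membrane ATPase (chr1:1471769-1497848), measured 11.2, 14.2 and 14.3 CPM in sgC, 33.1 and 38.4 in sgZ1 and 33.9 and 31.1 in sgZ3. Its knockout libraries all lay above the controls, with a log2 fold change of 1.36 (SE 0.096, adjusted p = 8.11e-11) and a difference between guides of -0.14 (adjusted p = 0.326). Its close paralog ATAD3A could share reads with it, which makes the value uncertain. CLEC11A, a secreted growth factor for osteogenic and blood cells (chr19:50723329-50725718), measured 1.58, 1.96 and 1.48 CPM in sgC, 5.19 and 5.46 in sgZ1 and 3.73 and 4.71 in sgZ3, a log2 fold change of 1.52 (SE 0.17, adjusted p = 9.1e-08). WNT10B, a Wnt ligand (chr12:48965340-48971763), measured 1.39, 2.56 and 2.39 CPM in sgC, 6.0 and 6.89 in sgZ1 and 5.53 and 4.28 in sgZ3, a log2 fold change of 1.40 (SE 0.18, adjusted p = 4.69e-07). SNHG10, a noncoding host of a small nucleolar RNA, rose by 1.34 (SE 0.13) on the log2 scale, and SCO2, a copper chaperone of cytochrome c oxidase, by 1.45 (SE 0.19). SNHG10 overlaps GLRX5 on the other strand and SCO2 overlaps TYMP on its own strand, so their reads may be mixed with those genes'. In CLEC11A, WNT10B, SNHG10 and SCO2, too, sgZ3 did not differ from sgZ1 past the threshold, with adjusted p of 0.15, 0.0867, 0.601 and 0.299. ITGAE, an integrin subunit that binds E-cadherin, measured 7.33, 8.98 and 8.45 CPM in sgC, 16.5 and 18.9 in sgZ1 and 23.9 and 24.3 in sgZ3 and was higher in sgZ3 than in sgZ1 by 0.45 on the log2 scale (adjusted p = 0.00273). ITGAE overlaps HASPIN on the other strand.

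DKK1, a secreted Wnt antagonist (chr10:52314296-52318042), had the highest log2 fold change over both guides among the genes named by rule, and it came from sgZ1. It measured 0.347, 0.272 and 0.697 CPM in sgC, 296 and 300.0 in sgZ1 and 0.733 and 1.02 in sgZ3. The sgZ1 libraries stood far above all others, and the sgZ3 libraries only just above the controls. The log2 fold change was 9.34 (SE 0.15, adjusted p = 8.07e-26) with sgZ1 and 0.96 (SE 0.37, adjusted p = 0.0273) with sgZ3. HAS3, a hyaluronan synthase (chr16:69105564-69118719), measured 2.23, 2.88 and 2.74 CPM in sgC, 50.4 and 55.3 in sgZ1 and 7.06 and 5.73 in sgZ3. Here the sgZ3 libraries were also clear of the controls, with log2 fold changes of 4.33 (SE 0.13, adjusted p = 2.29e-20) and 1.28 (SE 0.17, adjusted p = 3.98e-07). HAS3 overlaps CHTF8 and DKK1 overlaps PRKG1-AS1 on the other strand. HS3ST1, which adds sulfate to heparan sulfate chains, measured 23.6, 23.2 and 23 CPM in sgC, 110.1 and 126 in sgZ1 and 38 and 37.6 in sgZ3. With the knockout libraries as 1 group, DKK1 and HAS3 had adjusted p of 0.075 and 0.053 and were not called. The retinoic acid carrier CRABP2, the stathmin STMN3 and CTXN1 followed the same order, with changes of 2.56, 2.44 and 2.38 with sgZ1 and of 0.48, 0.39 and 0.43 with sgZ3.

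TXNIP, which binds thioredoxin and holds back glucose uptake (chr1:145992435-145996600, minus strand), was the most abundant of the strongly lower genes. It measured 724, 599 and 582 CPM in sgC, 308 and 270.1 in sgZ1 and 148 and 158 in sgZ3. Group means were 635 ± 77.7 CPM (SD, n = 3) in sgC, 289 ± 26.4 CPM (SD, n = 2) in sgZ1 and 153 ± 7.15 CPM (SD, n = 2) in sgZ3, and no library of 1 group reached the next. The log2 fold change over both guides was -1.59 (SE 0.076, adjusted p = 4.55e-14), and the difference of sgZ3 from sgZ1 was -0.92 (adjusted p = 3.0e-08). ARRDC4, its arrestin-domain relative (chr15:97960698-97973838), measured 55.2, 45.5 and 46.9 CPM in sgC, 30.2 and 24.4 in sgZ1 and 16.6 and 15.9 in sgZ3, a log2 fold change of -1.22 (SE 0.089, adjusted p = 1.11e-10). Both are known targets of MondoA, a transcription factor that senses glucose phosphates. In a list of 11 genes around MondoA, 5 were lower and 3 higher, beside 26.6% and 23.1% of all genes. The list's median was -0.073, beside -0.0322 over all tested genes. KLF10 and ARRDC3 were lower too, at -0.33 and -0.50, without a change past the threshold in sgZ1. ARRDC2, MLX and the glucose transporter SLC2A1 were higher, at 0.41, 0.24 and 0.18. The list's median moved to 0.00271 without sgC replicate 3.

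Several of the lowest genes fell with each guide without a difference between guides past the threshold. SLC16A4, a monocarboxylate transporter family member (chr1:110362848-110391082), measured 50.1, 34.2 and 39.5 CPM in sgC, 13.5 and 15.5 in sgZ1 and 14.3 and 12.2 in sgZ3. All 4 knockout libraries lay far below the controls, with a log2 fold change of -1.58 (SE 0.11, adjusted p = 2.47e-10), and the guides differed by -0.13 (adjusted p = 0.502). It overlaps LAMTOR5-AS1 on the other strand. GPR1, a chemerin receptor (chr2:206175316-206218047), measured 25.4, 21.6 and 20.8 CPM in sgC, 8.95 and 8.57 in sgZ1 and 9.13 and 8.88 in sgZ3, a log2 fold change of -1.35 (SE 0.098, adjusted p = 1.23e-10). SLIT1, a secreted axon guidance ligand, was at -1.32, the organic anion transporter SLC22A11 at -1.54, the cGMP-dependent kinase PRKG2 at -1.57 and the stress keratin KRT16 at -1.41. For none of these 6 did the guides differ past the threshold, with adjusted p of 0.0883 to 0.841. KRT16 has near-identical copies, so its value is uncertain. FRMD3 measured 27.2, 28.1 and 27.9 CPM in sgC, 13.8 and 12.2 in sgZ1 and 7.93 and 9.04 in sgZ3 and fell by 1.40, more so with sgZ3 (difference -0.61, adjusted p = 3.66e-04). ULBP1, a stress ligand of natural killer cells (chr6:149964007-149973710), measured 13.2, 12.4 and 16.3 CPM in sgC, 9.76 and 9.99 in sgZ1 and 1.4 and 1.77 in sgZ3, and its log2 fold change of -1.82 was led by sgZ3, with -3.13 (SE 0.19, adjusted p = 4.06e-12) against -0.51 (SE 0.13, adjusted p = 0.00294) in sgZ1. With 1 knockout group, ULBP1 had a log2 fold change of -1.26 and an adjusted p of 0.22. In HDHD2, RELN and CHRDL1 the sgZ1 replicates lay apart. RELN, the secreted matrix protein reelin, was at 4.14 and 1.43 CPM in sgZ1 beside 5.05 to 5.55 in sgC.

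Most genes of ribosome assembly were higher over both guides, where 23.1% of all genes were higher and 26.6% lower. Of 61 genes of small-subunit assembly 43 were higher and 4 lower over both guides, with a median log2 fold change of 0.266. Of 60 genes of large-subunit assembly 37 were higher and 6 lower, with a median of 0.276. By each guide 22 of the 61 and 27 of the 60 were called higher, beside 8.0% of all genes. With sgZ1 43 and 41 were higher and 1 and 2 lower, and with sgZ3 31 and 32 were higher and 9 and 11 lower. The shares of all genes higher and lower were 22.0% and 17.5% with sgZ1, and 23.9% and 31.3% with sgZ3. Against sgZ1, sgZ3 was higher in 11 and 10 and lower in 24 and 23, beside 23.2% and 29.9% of all genes. RRP9, which binds the U3 small nucleolar RNA, measured 53.5, 56.3 and 49.6 CPM in sgC, 95.7 and 101 in sgZ1 and 108 and 104 in sgZ3, a log2 fold change of 0.94 (SE 0.074, adjusted p = 3.78e-10). Its knockout libraries all lay above its controls, and sgZ3 differed from sgZ1 by 0.10 (adjusted p = 0.366). NOP16, a nucleolar factor of the large subunit, measured 20.8, 22.7 and 20.5 CPM in sgC, 33.8 and 37.4 in sgZ1 and 58.6 and 56.1 in sgZ3, a log2 fold change of 1.09 (SE 0.081, adjusted p = 1.64e-10). IMP3, a U3 partner, was at 0.78, the helicase DHX37 at 0.76, and the large-subunit factors MRTO4 and BOP1 at 0.86 and 0.79. The other way went RIOK3, a kinase relative of the small-subunit factors, which measured 128, 109 and 112 CPM in sgC, 78 and 65 in sgZ1 and 65.7 and 57 in sgZ3, a log2 fold change of -0.81 (SE 0.080, adjusted p = 1.4e-08). MPHOSPH10, of the U3 complex, fell by 0.31, with -0.74 in sgZ3 and 0.13 in sgZ1 (adjusted p = 0.302). RSL24D1 and NMD3, of the large subunit, fell by 0.42 and 0.26 on the log2 scale.

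Among 20 core proteins of small nucleolar particles and their scaffold, 13 were higher and 1 lower, at a median of 0.314. Of all genes 23.1% were higher and 26.6% lower. SNU13, which binds the particles' kink-turn RNA, was at 0.58, NHP2 at 0.57 and the assembly ATPase RUVBL1 at 0.68. SNU13 overlaps CTA-216E10.11 on its own strand. ZNHIT6, an assembly factor, was the 1 lower gene, at -0.25. Of 20 genes of RNA polymerase I and ribosomal DNA transcription, 13 were higher and 3 lower, with the shared subunits POLR2L and POLR2F at 0.85 and 0.86 and the polymerase I subunit POLR1E at 0.53. UBTF, the factor that opens ribosomal DNA, went opposite ways: 0.30 (SE 0.090, adjusted p = 0.00885) with sgZ1 and -0.85 (SE 0.097, adjusted p = 5.32e-08) with sgZ3. Among 21 noncoding hosts of small nucleolar RNAs 10 were higher and 2 lower. DANCR measured 29.6, 33.8 and 27.1 CPM in sgC, 53.3 and 61.9 in sgZ1 and 85.8 and 83.7 in sgZ3, a log2 fold change of 1.21 (SE 0.086, adjusted p = 8.11e-11).

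Ribosomal protein genes behaved otherwise, since their change came with sgZ3. Over both guides 25 of 32 small-subunit and 40 of 46 large-subunit ribosomal protein genes were higher and 0 lower, but with sgZ1 only 1 and 2 were called. With sgZ3 31 and 43 were called, all higher. Of all genes 23.1% were higher over both guides, 22.0% with sgZ1 and 23.9% with sgZ3. The test of sgZ3 against sgZ1, in which 53.2% of all genes were called (23.2% higher and 29.9% lower), called 31 and 42 of them higher in sgZ3. RPL17 measured 30.8, 35 and 30.1 CPM in sgC, 39.9 and 34.9 in sgZ1 and 57.5 and 53.2 in sgZ3, a log2 fold change of 0.79 (SE 0.095, adjusted p = 1.29e-07) with sgZ3 and 0.23 (SE 0.097, adjusted p = 0.0632) with sgZ1. RPL6 measured 577, 612 and 538 CPM in sgC, 671 and 687 in sgZ1 and 833 and 754 in sgZ3. In both genes the sgZ3 libraries lay above all others. The sgC libraries differed among themselves here, with replicate 3 below and replicate 2 above in each of these genes. Without sgC replicate 3, 11 of the 32 and 25 of the 46 were called, and with library totals alone 16 of the 32. With all 9 libraries 7 and 14 were called higher, beside 18.6% of all genes. Ribosomal protein genes have many processed copies that could take or give reads. RPL17 overlaps RPL17-C18orf32 on its own strand, so its value is uncertain.

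Mitochondrial ribosomal and respiratory genes were also higher with sgZ3 than with sgZ1. Over both guides 23.1% of all genes were higher and 26.6% lower. Higher with sgZ1 were 22.0% of all genes, with sgZ3 23.9%, and in sgZ3 against sgZ1 23.2%. Of 73 mitochondrial ribosomal proteins 53 were higher and 3 lower, with a median of 0.105 in sgZ1 and 0.573 in sgZ3, and sgZ3 was above sgZ1 in 53. MRPS12 measured 62, 69 and 61.3 CPM in sgC, 83.4 and 96.2 in sgZ1 and 143 and 137 in sgZ3, with sgZ3 above sgZ1 and sgZ1 above sgC. MRPL12 and MRPL36 rose by 0.86 and 0.88. Of 58 nuclear genes of oxidative phosphorylation 37 were higher over both guides and 1 lower, 5 higher with sgZ1 and 48 with sgZ3. NDUFB9, of complex I, measured 196, 227 and 182 CPM in sgC, 249 and 266 in sgZ1 and 349.9 and 324 in sgZ3, while NDUFB5, another complex I subunit, fell by 0.53. With all 9 libraries 18 of the 58 were higher, beside 18.6% of all genes. Of 37 proteasome genes 21 were higher and 1 lower, at medians of 0.0926 with sgZ1 and 0.359 with sgZ3. PSMC5, a subunit of the regulatory ATPase ring, rose by 0.52.

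**Figure D3:**
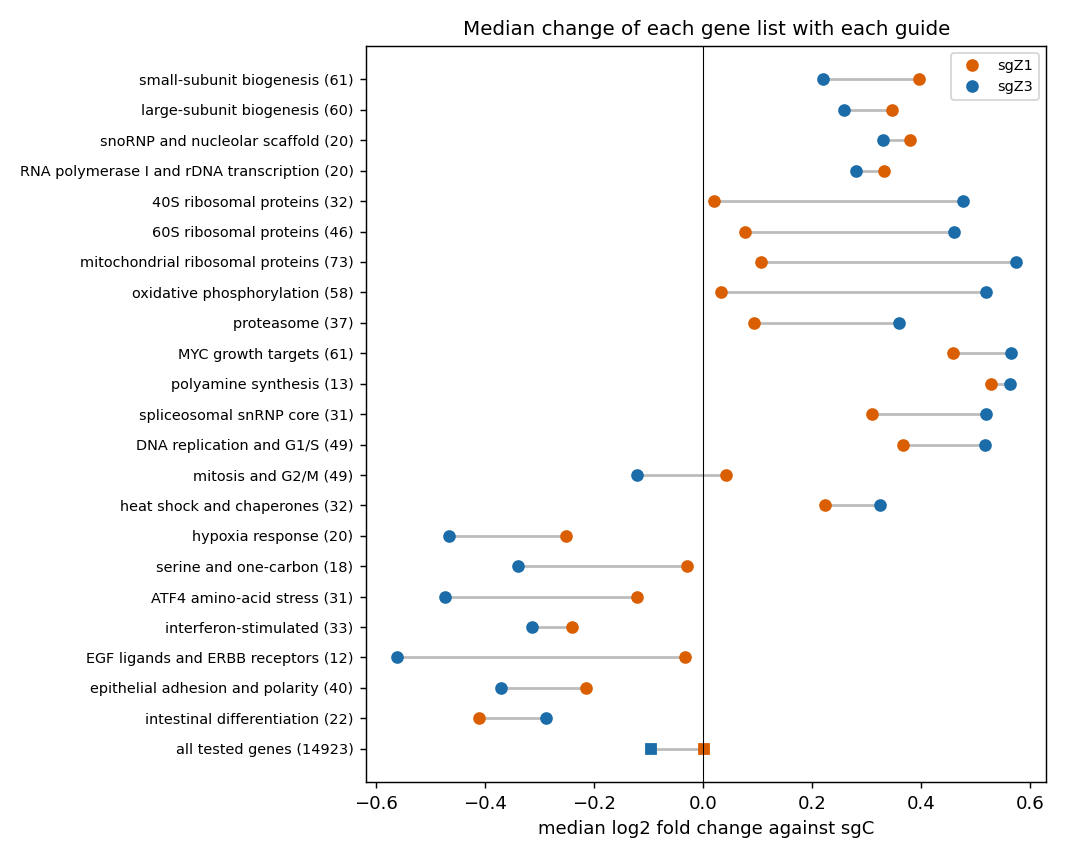
Median log2 fold change against sgC of each gene list, 1 row per list with its number of tested genes, for sgZ1 and sgZ3; squares give all tested genes. Ribosomal protein lists lie near 0 with sgZ1 (0.0193 and 0.0756) and at 0.476 and 0.46 with sgZ3, while ribosome assembly and MYC growth lists lie to the right with both guides.

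Of 61 growth genes known as MYC targets, 49 were higher over both guides and 0 lower, with medians of 0.458 with sgZ1 and 0.565 with sgZ3 and 36 higher with each guide. Over all genes 23.1% were called higher over both guides, and 8.0% with each guide. SRM, which makes spermidine, measured 71.2, 79.4 and 75.4 CPM in sgC, 126 and 147 in sgZ1 and 162 and 177 in sgZ3, a log2 fold change of 1.02 (SE 0.076, adjusted p = 1.61e-10). All 4 knockout libraries lay above the controls, sgZ3 above sgZ1. GRWD1, a histone-binding and ribosome factor, was at 0.89, and DCTPP1, which clears noncanonical nucleotides, at 0.88. The list shares genes with the assembly lists, RRP9 and NOP16 among them. Of 13 genes of polyamine synthesis 9 were higher and 1 lower, with ODC1, the rate-limiting enzyme, at 490.0, 482 and 427 CPM in sgC, 705 and 675 in sgZ1 and 798 and 735 in sgZ3. DOHH, which modifies the translation factor EIF5A, was at 0.83 and AZIN1, which frees ODC1 from its inhibitor, fell by 0.35. Of 31 core spliceosome genes 24 were higher and 0 lower, SNRNP70 by 0.69 and U2AF2 by 0.61.

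Most genes of DNA replication and the G1/S step rose, with each guide. Of 49 tested, 38 were higher and 3 lower over both guides, with medians of 0.366 in sgZ1 and 0.517 in sgZ3. GINS2, of the replicative helicase, measured 39.2, 47 and 39.7 CPM in sgC, 72 and 77 in sgZ1 and 97.6 and 92.2 in sgZ3, a log2 fold change of 1.00 (SE 0.079, adjusted p = 4.16e-10). E2F1, a transcription factor of this step, measured 26.4, 29 and 25.9 CPM in sgC, 36.5 and 40.6 in sgZ1 and 58.8 and 61.2 in sgZ3, a log2 fold change of 0.83 (SE 0.079, adjusted p = 8.33e-09). FEN1, the flap endonuclease, was at 0.97, CCNE1, cyclin E1, at 0.94, and MCM3, a helicase subunit, at 0.56. FEN1 overlaps FADS2 on its own strand. RFC1, the large subunit of the clamp loader, rose by 0.53 with sgZ1 and fell by 1.27 with sgZ3. Of 49 genes of mitosis 7 were higher and 7 lower when all 9 libraries were used, beside 18.6% and 14.6% of all genes. Nothing particular to the list is read from those counts. With the 7 libraries 10 were higher (20.4%) and 18 lower (36.7%), beside 23.1% and 26.6% of all genes. BIRC5 and CDC20 were higher by 0.48 and 0.41 on the log2 scale, whereas TOP2A measured 304, 274 and 344 CPM in sgC, 274 and 241 in sgZ1 and 155 and 159 in sgZ3 and HMMR 64.9, 52.4 and 62.3 CPM in sgC, 53.6 and 44.5 in sgZ1 and 27.1 and 26.9 in sgZ3, both lower.

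Chaperone genes rose as well: of 32 tested, 21 were higher and 1 lower over both guides, 18 higher with sgZ1 and 19 with sgZ3. The shares of all genes higher were 23.1%, 22.0% and 23.9%. FKBP4, a co-chaperone of HSP90, measured 134, 152 and 143 CPM in sgC, 308 and 316 in sgZ1 and 285 and 272 in sgZ3, a log2 fold change of 1.04 (SE 0.069, adjusted p = 2.88e-11). The knockout libraries all stood at near the same height, and sgZ3 differed from sgZ1 by -0.17 (adjusted p = 0.112). The HSP70 partner DNAJA1 was at 0.72, CHORDC1, an HSP90 co-chaperone, at 0.83, AHSA1, which activates HSP90, at 0.63 and the constitutive HSP70 protein gene HSPA8 at 0.53, the last led by sgZ3 (0.94, against 0.12 with sgZ1). HSPA1A, near-identical to HSPA1B and so uncertain, fell by 0.63 at 2.3 CPM in sgC, and HSPA1B was higher by 0.53.

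Promoters of the growth, replication and chaperone lists were searched for the letters of the factors known to bind them. RefSeq promoters (GRCh38.p14) were found for 10989 of 14922 tested symbols, and the 250 bases before each start were searched on both strands. The E-box CACGTG was in 12 of 50 promoters of MYC growth targets (24.0%) and in 8.79% of all. An E2F motif, as TTTCCCGC, TTTGGCGC or TTTCGCGC, was in 15 of 40 replication promoters (37.5%) and in 3.86% of all. The heat shock element GAANNTTC was in 8 of 29 chaperone promoters (27.6%) and in 3.89% of all. The table's start lies inside the gene's RefSeq span for some genes, so that 1812 windows overlap their own gene. Over the windows that do not, chosen after seeing the data, the shares were 25%, 41.2% and 28.0% in these lists and 8.74%, 4.0% and 3.85% of all. Over the genes called higher with each guide, without regard to list, shares were 10.9%, 5.29% and 4.76%, beside 8.79%, 3.86% and 3.89% of all promoters. All 46 pathway lists were searched for these and other motifs, and shares of the other motifs are not given. The E2F letters were not particular to replication genes. They were also in 3 of 10 promoters of DNA mismatch repair (30.0%) and 3 of 14 of serine and folate-linked carbon metabolism (21.4%). The E-box was not particular to MYC growth targets. It was in 4 of 14 promoters of intestinal differentiation (28.6%), a list with 13 genes lower and 1 higher over both guides. Translation factor promoters held it in 7 of 33 (21.2%), and those of oxidative phosphorylation in 0 of 46. The promoters shown were chosen among genes described above because they hold such letters, which are in capitals, and lie outside the gene's RefSeq span. They are SRM (chr1:11060019-11060268, minus strand), GINS2 (chr16:85688955-85689204, minus strand), E2F1 (chr20:33686386-33686635, minus strand), MCM3 (chr6:52284743-52284992, minus strand), DNAJA1 (chr9:33025023-33025272, plus strand) and CHORDC1 (chr11:90223050-90223299, minus strand).
SRM: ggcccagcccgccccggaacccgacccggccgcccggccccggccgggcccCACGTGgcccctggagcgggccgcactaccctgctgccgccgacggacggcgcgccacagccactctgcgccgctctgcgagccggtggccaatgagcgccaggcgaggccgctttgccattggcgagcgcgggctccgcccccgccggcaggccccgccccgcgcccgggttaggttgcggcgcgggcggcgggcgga
GINS2: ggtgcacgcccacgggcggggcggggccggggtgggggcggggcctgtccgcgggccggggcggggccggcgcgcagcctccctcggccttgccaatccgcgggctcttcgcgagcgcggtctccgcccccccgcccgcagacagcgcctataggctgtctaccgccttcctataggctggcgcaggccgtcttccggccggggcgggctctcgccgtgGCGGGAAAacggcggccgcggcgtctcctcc
E2F1: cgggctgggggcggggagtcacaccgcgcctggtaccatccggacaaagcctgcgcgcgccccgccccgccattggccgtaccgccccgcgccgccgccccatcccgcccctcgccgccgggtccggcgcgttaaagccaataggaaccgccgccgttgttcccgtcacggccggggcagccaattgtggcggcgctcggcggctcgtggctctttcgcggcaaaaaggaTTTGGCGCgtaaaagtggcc
MCM3: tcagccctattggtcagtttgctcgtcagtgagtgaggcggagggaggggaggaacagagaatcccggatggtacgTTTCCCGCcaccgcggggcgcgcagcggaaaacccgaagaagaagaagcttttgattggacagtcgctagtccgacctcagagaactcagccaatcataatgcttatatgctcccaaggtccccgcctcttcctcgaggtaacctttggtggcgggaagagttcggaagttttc
DNAJA1: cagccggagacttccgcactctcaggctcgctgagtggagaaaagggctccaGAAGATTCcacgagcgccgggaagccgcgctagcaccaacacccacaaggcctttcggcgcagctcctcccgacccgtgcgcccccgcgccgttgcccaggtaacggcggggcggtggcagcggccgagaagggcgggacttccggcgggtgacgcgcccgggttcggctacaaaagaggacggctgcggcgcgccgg
CHORDC1: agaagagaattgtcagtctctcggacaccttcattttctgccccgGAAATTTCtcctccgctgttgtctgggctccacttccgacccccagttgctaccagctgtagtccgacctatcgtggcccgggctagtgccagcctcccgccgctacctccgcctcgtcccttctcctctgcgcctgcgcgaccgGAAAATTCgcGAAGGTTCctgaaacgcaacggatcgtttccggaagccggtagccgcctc
Counted on the printed strand, the first letter of a match lies 199 bases before the start in SRM, 31 in GINS2, 20 in E2F1 and 174 in MCM3. In DNAJA1 it lies 198 before, and in CHORDC1 205, 60 and 50. A match is a description of letters and not a sign that a factor was bound.

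Genes of the amino acid stress response driven by the transcription factor ATF4 were more often lower than higher. Of 31 tested 17 were lower and 6 higher over both guides, where 26.6% of all genes were lower. Medians were -0.121 in sgZ1 and -0.475 in sgZ3. SLC6A9, a glycine transporter, measured 99.9, 92 and 108 CPM in sgC, 63.7 and 72.9 in sgZ1 and 29.5 and 32.2 in sgZ3, a log2 fold change of -1.12 (SE 0.077, adjusted p = 6.37e-11). The sgZ1 libraries lay between sgC and sgZ3. SLC7A11, the cystine importer, measured 128, 122 and 139 CPM in sgC, 109 and 83.6 in sgZ1 and 47.8 and 42.1 in sgZ3, a log2 fold change of -0.98 (SE 0.083, adjusted p = 1.33e-09), and VLDLR, a lipoprotein receptor, was at -1.05. Higher were the transcription factor ATF5 (0.58), the glutathione-degrading enzyme CHAC1 (0.33) and GDF15 (0.27), a stress cytokine. Of 18 genes of serine and folate-linked carbon metabolism 9 were lower and 2 higher over both guides. With sgZ1 5 were lower and 4 higher, at a median of -0.0293, beside 17.5% and 22.0% of all genes. PSAT1, which makes serine, measured 988, 925 and 921 CPM in sgC, 702 and 596 in sgZ1 and 492 and 452 in sgZ3, a log2 fold change of -0.77 (SE 0.070, adjusted p = 3.27e-09), and PSPH, of the same route, was at -0.56. PCK2, the mitochondrial phosphoenolpyruvate carboxykinase, measured 312, 205 and 259 CPM in sgC, 125 and 138 in sgZ1 and 87 and 92.7 in sgZ3, a log2 fold change of -1.25 (SE 0.11, adjusted p = 2.11e-07). Of 20 cytosolic tRNA synthetases 10 were lower and 5 higher, with CARS1 at -0.84 and GARS1 at -0.62 but FARSA at 0.64.

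Of 20 hypoxia genes 10 were lower and 3 higher, beside 26.6% and 23.1% of all genes. The mitophagy receptor BNIP3L measured 165, 153 and 139 CPM in sgC, 106 and 88 in sgZ1 and 79.1 and 79.8 in sgZ3, a log2 fold change of -0.79 (SE 0.076, adjusted p = 9.01e-09). PDK1, a kinase that inhibits pyruvate dehydrogenase, was at -0.71. STC2, a secreted stanniocalcin, went opposite ways, at 2.53, 2.5 and 2.48 CPM in sgC, 28.6 and 32.7 in sgZ1 and 1.67 and 0.856 in sgZ3. Without sgZ1 replicate 3, 5 of the 20 were lower. Among mTOR pathway genes, DEPTOR, an inhibitor of the kinase, measured 10.3, 7.51 and 7.14 CPM in sgC, 4.43 and 5.37 in sgZ1 and 2.87 and 2.35 in sgZ3, a log2 fold change of -1.22 (SE 0.15, adjusted p = 2.5e-07). SESN3, a leucine-pathway inhibitor, was at -0.82, and the lysosomal anchor subunit LAMTOR4 at 0.89. Of the 32 genes of that list 11 were higher and 7 lower, beside 23.1% and 26.6% of all genes, a small margin.

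Interferon-stimulated genes and genes of epithelial adhesion were more often lower than higher, where over all genes 26.6% were lower and 23.1% higher. Of 33 interferon-stimulated genes 16 were lower and 3 higher, with medians of -0.241 in sgZ1 and -0.314 in sgZ3. IFIH1, a sensor of double-stranded RNA, measured 37.4, 37.3 and 38.7 CPM in sgC, 29.1 and 29.4 in sgZ1 and 21.9 and 24 in sgZ3, a log2 fold change of -0.55 (SE 0.077, adjusted p = 2.28e-06). SAMD9 was at -1.16 and HERC6 at -0.53, while ISG15, IFITM2 and IFITM3 were higher, by 0.39, 0.38 and 0.30. IFITM2 overlaps IFITM1 on its own strand. Of 40 genes of epithelial adhesion and polarity 26 were lower and 3 higher. LAMB3, a laminin chain of the basement membrane, measured 289, 252 and 299 CPM in sgC, 186 and 219 in sgZ1 and 134 and 156 in sgZ3, a log2 fold change of -0.71 (SE 0.076, adjusted p = 5.11e-08). DSC2, a desmosomal cadherin, was at -0.74, whereas CLDN2, a pore-forming claudin, was higher at 35.8, 39.4 and 42.4 CPM in sgC, 56.3 and 58.6 in sgZ1 and 81.7 and 82.1 in sgZ3. Of 22 genes of intestinal differentiation 13 were lower and 1, the carbonic anhydrase CA2 (0.86), higher. CDH17, the liver-intestine cadherin, measured 394, 405 and 412 CPM in sgC, 272 and 291 in sgZ1 and 338 and 346 in sgZ3, a log2 fold change of -0.38 (SE 0.064, adjusted p = 2.68e-05). The 15 general colorectal epithelial markers did not follow with sgZ3: 6 were higher and 4 lower there, at a median of 0.08, and with sgZ1 0 were higher and 10 lower. The shares of all genes higher and lower were 23.9% and 31.3% with sgZ3, and 22.0% and 17.5% with sgZ1. EPCAM, the epithelial adhesion molecule, measured 1211, 1294 and 1125 CPM in sgC, 1019 and 959 in sgZ1 and 1531 and 1467 in sgZ3. With all 9 libraries 14 of the epithelial 40 and 7 of the intestinal 22 were lower, beside 14.6% of all genes. Of 12 EGF ligands and receptors 6 were lower, among them the ligand BTC (-0.99) and the receptor ERBB3 (-0.56).

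Other lists were smaller or divided, where over all genes 23.1% were higher and 26.6% lower. Of 29 genes of nucleotide synthesis 15 were higher and 2 lower, with PRPS1, which makes the ribose donor of nucleotides, at 30.3, 32.8 and 31.4 CPM in sgC, 82 and 83.7 in sgZ1 and 43.9 and 41.9 in sgZ3, a log2 fold change of 0.92 (SE 0.076, adjusted p = 8.48e-10). IMPDH1, of guanine nucleotide synthesis, rose by 0.69 and the thymidine kinase TK1 by 0.52. Of 27 genes of RNA polymerase III 14 were higher and 5 lower, with the subunit POLR3K at 0.97 and BDP1, an initiation factor, at -0.66. Of 41 translation factors 19 were higher and 5 lower. EIF3B rose by 0.55 and EIF5A by 0.49, whereas EIF5, which triggers GTP hydrolysis at the start codon, fell by 0.45 and did so with each guide (-0.34 and -0.57).

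Of 27 targets of the tumour suppressor p53, 9 were higher and 9 lower, beside 23.1% and 26.6% of all genes, and nothing particular to the list is read from these counts. AEN, an exonuclease, measured 16.2, 19.5 and 20.6 CPM in sgC, 34.9 and 37.9 in sgZ1 and 52.5 and 49 in sgZ3, a log2 fold change of 1.19 (SE 0.088, adjusted p = 1.57e-10), and BAX, which opens the mitochondrial membrane in apoptosis, rose by 0.48. The knockout libraries of AEN all lay above its controls. CCNG1, cyclin G1, fell by 0.37, with -0.36 in sgZ1 and -0.38 in sgZ3 (adjusted p of the difference = 0.895). MDM2, which degrades p53, was at 0.072 with sgZ1 (adjusted p = 0.588) and fell by 0.62 with sgZ3. Among 23 glycolytic genes 11 were higher and 2 lower, led by PGAM1 (0.47), the lactate exporter SLC16A3 (0.52) and enolase ENO1 (0.43), and with library totals alone 7 were higher and 2 lower. Of 25 cholesterol genes 9 were higher and 4 lower, but with opposite leanings: 5 higher and 9 lower with sgZ1, and 13 higher and 1 lower with sgZ3. The shares of all genes higher and lower were 22.0% and 17.5% with sgZ1, and 23.9% and 31.3% with sgZ3. DHCR7, of the last step of synthesis, measured 412, 458 and 422 CPM in sgC, 454 and 522 in sgZ1 and 729.7 and 773 in sgZ3, and MSMO1, a sterol oxidase, 344, 364 and 312 CPM in sgC, 258 and 212 in sgZ1 and 316 and 308 in sgZ3. DHCR7 stood highest in sgZ3, while MSMO1 stood lowest in sgZ1.

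Of 22 genes of NF-kappaB signalling and chemokines 9 were lower and 4 higher, where over all genes 26.6% were lower and 23.1% higher. CXCL5, a chemokine, measured 2948, 3168 and 2942 CPM in sgC, 2418 and 1669 in sgZ1 and 2255 and 2142 in sgZ3, a log2 fold change of -0.51 (SE 0.090, adjusted p = 8.29e-05), and BIRC3, an apoptosis inhibitor induced by NF-kappaB, fell by 0.76. CXCL1, CXCL2 and CXCL3 were higher with sgZ3, by 0.64, 0.84 and 0.74, and at -0.055, -0.19 and -0.043 with sgZ1, none of these last past the threshold. Of 25 immediate-early genes 8 were higher and 2 lower, but with length and GC offsets 5 and 6, and of 18 genes of MAPK feedback 8 were higher and 4 lower. FOSL1, a partner of JUN in AP-1, measured 13.4, 12.6 and 14.4 CPM in sgC, 40.3 and 45.8 in sgZ1 and 17.7 and 20.2 in sgZ3, a log2 fold change of 1.08 (SE 0.092, adjusted p = 1.43e-09). IER3, an early response gene, rose by 0.37 with sgZ1 and 0.42 with sgZ3, and SPRED1, a brake on RAS, fell by 0.56. Of 23 Wnt targets and antagonists 7 were lower (30.4%), near the share of all genes, and 2 were higher (8.7%), DKK1 and LGR5. PROX1, a transcription factor raised by Wnt signalling in colorectal tumours, measured 8.37, 9.42 and 11 CPM in sgC, 6.76 and 6.16 in sgZ1 and 3.53 and 3.8 in sgZ3, a log2 fold change of -0.98 (SE 0.12, adjusted p = 5.1e-07). LGR5, the stem cell receptor for R-spondin, measured 17.1, 20.3 and 22.6 CPM in sgC, 26.5 and 25.3 in sgZ1 and 27.3 and 27.5 in sgZ3, a log2 fold change of 0.41 (SE 0.091, adjusted p = 6.08e-04). Of 13 genes of caveolae and of the proteins that tie actin to the membrane, 9 were higher over both guides and 11 with sgZ1. With sgZ3 3 were higher and 4 lower, near the shares of all genes, 23.9% and 31.3%. The share of all genes higher with sgZ1 was 22.0%. CAV1, the caveolar coat protein, measured 38.9, 36.2 and 37.3 CPM in sgC, 178 and 163 in sgZ1 and 47.2 and 47.9 in sgZ3 and was higher with each guide, by 2.18 and 0.34.

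The guides differed from each other in 7932 genes (53.2%), and 715 genes were called higher with sgZ1 and lower with sgZ3, 231 the other way. Of the 7409 genes called over both guides, 1279 were called with sgZ1 alone and 3204 with sgZ3 alone, 206 had called changes in opposite directions, and 4513 also differed between guides. Of the 2612 called in 1 direction with each guide, 1641 did not differ between guides past the threshold. MSH6, of DNA mismatch repair, which overlaps FBXO11 on the other strand, measured 6.64, 9.63 and 7.01 CPM in sgC, 68.8 and 74.7 in sgZ1 and 4.33 and 4.39 in sgZ3. CDKN2A, the cell cycle inhibitor locus, measured 1.83, 3.21 and 2.44 CPM in sgC, 33 and 36.8 in sgZ1 and 1.13 and 0.696 in sgZ3. MSN, moesin, which ties actin to the membrane, measured 6.69, 7.78 and 6.09 CPM in sgC, 96.7 and 104 in sgZ1 and 2.93 and 2.03 in sgZ3. In each of these 3 the sgZ1 libraries stood above and the sgZ3 libraries below all controls, so that a mean over both guides is close to neither. With sgZ1 and with sgZ3 the log2 fold changes were 3.22 and -0.82 for MSH6, 3.82 and -1.47 for CDKN2A, and 3.88 and -1.48 for MSN. The 5 genes CD109, CSPG4, RFLNB, M1AP and SLC38A5 were at 11 to 48.2 CPM in sgZ1 and at 0 to 0.200 in sgZ3. In the first 4 both sgZ3 libraries were at 0, so no fold over both guides is given. Summed cancer-testis markers were at 215.0 and 235.0 CPM in sgZ1, 11.2 to 14.2 in sgC and 3.90 to 6.69 in sgZ3, with MAGEB2 and GTSF1 prominent in sgZ1. The part of these transcripts in the other sgZ1 results was not tested. Higher in sgZ3 were the histone genes H4C8 and H3C12, with sgZ3 minus sgZ1 at 2.09 and 1.98, near copies of other histone genes and so uncertain.

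**Figure D4:**
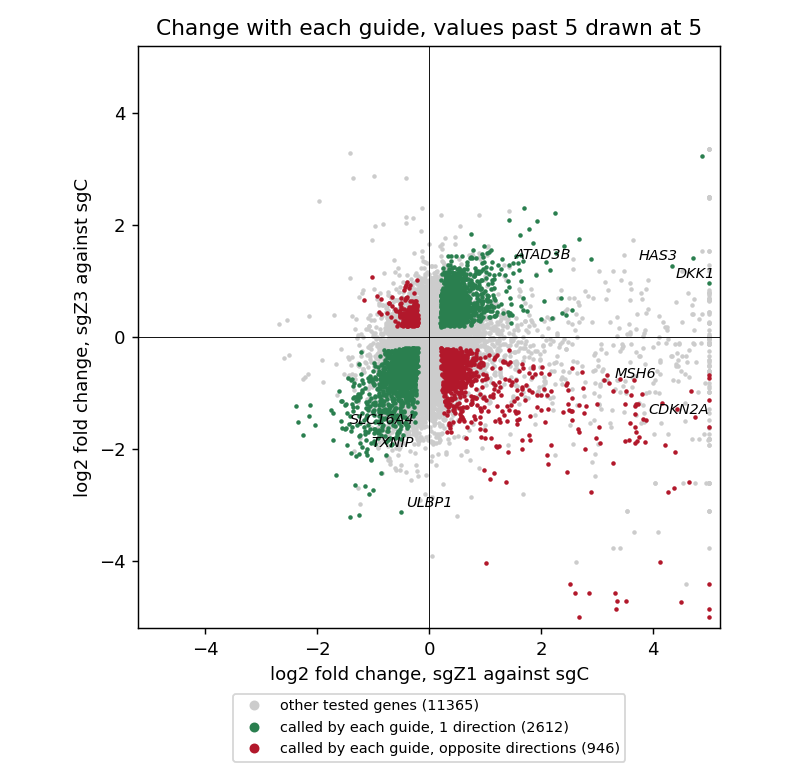
Log2 fold change against sgC with sgZ1 (x) and sgZ3 (y) for all tested genes, values past 5 drawn at 5; green marks the 2612 genes called in 1 direction and red the 946 called in opposite directions. Both comparisons share the sgC libraries; the red points stretch far along the sgZ1 axis, with MSH6 and CDKN2A among them.

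The change moved with gene length in sgZ3 and with GC content in both guides. Genes were put into 5 equal classes by summed exon length in GENCODE 29. From the shortest to the longest class the median log2 fold change with sgZ3 was 0.229, 0.0636, -0.0885, -0.201 and -0.409. With sgZ1 it ran from 0.0205 to -0.0317. In single libraries the longest class deviated from the sgC mean by -0.373 and -0.363 in sgZ3 and by 0.0126 and -0.061 in sgZ1, while each sgC library, set against the other controls, lay at -0.0102, -0.0853 and 0.0963. GC content went with both guides: the lowest class had medians of -0.183 with sgZ1 and -0.34 with sgZ3, and the highest 0.178 and 0.0102. The sgZ1 replicates were unequal here. The lowest class deviated by -0.0606 in sgZ1 replicate 1 and -0.292 in replicate 3, and the highest by 0.117 and 0.234. In sgZ3 replicates 1 and 2 the lowest class deviated by -0.293 and -0.326. The lists were counted again with length and GC content fitted as offsets in each library. In that fit 3656 of 14794 genes were higher and 3705 lower. Then 14 of 32 small-subunit and 28 of 46 large-subunit ribosomal protein genes were higher, against 25 and 40, and 34 of 58 oxidative phosphorylation genes. Ribosome assembly counts were 51 higher and 2 lower of 61 and 41 higher and 3 lower of 60, MYC growth targets 52 of 61, replication genes 41 of 49 and chaperones 23 of 32. ATF4 genes were lower in 22 of 31, and of 49 mitosis genes 13 were higher and 16 lower. Of the 7381 calls that could be refitted, 75% kept call and sign, and 31 were called with the opposite sign.

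**Figure D5:**
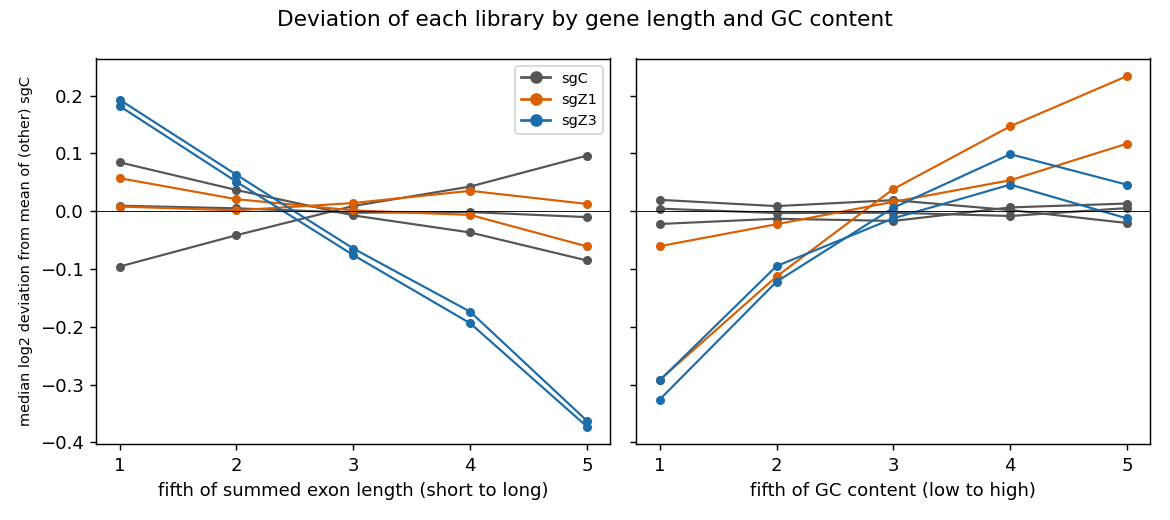
Median log2 deviation of each library from the mean of sgC (for an sgC library, of the other sgC libraries) in 5 classes of exon length (left) and GC content (right). Both sgZ3 libraries fall from 0.182 and 0.193 in the shortest class to -0.373 and -0.363 in the longest.

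Adding the left-out libraries back gave 4885 calls of 14732 genes tested (33.2%), 2734 higher (18.6%) and 2151 lower (14.6%). Of the genes tested both ways, 4760 were called in both sets, which is 64.6% of the calls with 7 libraries and 97.5% of those with 9, and 0 had opposite signs. The genes called only with 7 libraries were 815 higher and 1794 lower. The median standard error was 0.0902 with 7 and 0.122 with 9. The smallest adjusted p among genes called only with 7 libraries belonged to FLNC and MSN, both high in sgZ1, and to SPTAN1, AFDN, LMO7, SOX9, CKAP5 and SPTBN1, all low in sgZ3. SPTAN1, a spectrin of the membrane skeleton with 16236 bases of exon, measured 365, 324 and 410.3 CPM in sgC, 333 and 375 in sgZ1 and 149 and 151 in sgZ3, a log2 fold change of -1.29 (SE 0.094, adjusted p = 6.04e-11) with sgZ3 and -0.050 (SE 0.089, adjusted p = 0.695) with sgZ1. CKAP5, a microtubule polymerase, measured 136, 126 and 157 CPM in sgC, 155 and 150.1 in sgZ1 and 51.6 and 55.5 in sgZ3, and SOX9, a transcription factor of intestinal stem cells, 170.1, 151 and 187 CPM in sgC, 179 and 169.5 in sgZ1 and 63 and 72.6 in sgZ3. The sgZ1 libraries of these 3 genes lay within or close to the range of the controls. With 9 libraries only, 120 genes were called, 108 higher. TXNIP, HAS3 and ATAD3B, which were called with both sets, had log2 fold changes of -1.60, 2.83 and 1.36 with 9 libraries.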

How the data were processed

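Poly(A) RNA was sequenced from DLD1 cells with a control guide (sgC) or 1 of 2 ZNF692 guides (sgZ1, sgZ3). The authors deposited 1 table of raw read counts per gene, with 47021 genes, made per the submitters' processing notes with STAR 2.5.2b, SAMtools 1.9, HTSeq and DESeq2 on hg38. Which annotation and strand setting the counting used is not given in the sources used here. The 13 mitochondrial genes of the table hold 0 counts. The 7 kept libraries were tested in R 4.3.3 with edgeR 4.0.16 (limma 3.58.1): genes passing filterByExpr (14923), TMM factors, robust quasi-likelihood fit with guide as the factor (4 residual degrees of freedom), the contrast of the mean of sgZ1 and sgZ3 against sgC, and Benjamini-Hochberg adjustment over all tested genes. Every adjusted p in the text comes from that edgeR test. Levels are CPM with TMM factors of the 7 libraries, or, for the mesenchymal and other cell type markers, of all 9. The edgeR fit was also tested on simulated data.

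Gene lists were described by counts and medians only. The libraries, gene lists and named genes were chosen with earlier results of these data known. Named genes are ZNF692, the 15 highest and 15 lowest, up to 4 members per list with the smallest adjusted p and all members called against the majority, the 6 largest differences between guides each way, and the 8 smallest adjusted p among genes called with 7 or with 9 libraries only. Genes given for contrast beyond this rule were chosen after their values were seen. Positions come from GENCODE 29 (GRCh38) and promoters from RefSeq (GRCh38.p14). Alternatives were RLE, upper-quartile and total scaling, no filter, a mean of at least 10 CPM, DESeq2 1.42.0, a threshold of 0.01, a replicate block, each library left out, all 9 libraries, 1 knockout group of 4, and, chosen after seeing the data, offsets for length and GC content and promoter windows outside the gene's RefSeq span.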

Additional observations from a re-analysis of the deposited data

Results flagged for a closer look

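Between sgZ3 and sgZ1, 7932 genes differed in the edgeR test. Of the genes called in opposite directions by the 2 guides, 6 that the naming rule took are given here, as log2 differences of sgZ3 minus sgZ1. MSN was at -5.36, CDKN2A at -5.28, ELOVL5, a fatty acid elongase, at -4.9, STC2 at -4.64, MSH6 at -4.04 and CENPF, a kinetochore protein, at -2.01. In each of the 6 the sgZ1 mean lay above and the sgZ3 mean below the sgC mean. CENPF, for one, had means of 33.6 CPM in sgC, 41.6 in sgZ1 and 10.3 in sgZ3.

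In the 2 libraries left out of the comparison, VIM and SPARC stood above every control library. These transcripts chose the libraries, so their values carry no test. Not every gene of the mesenchymal list stood above: S100A4 was at 44.1 CPM in sgZ3 replicate 3 and 56.65 to 71.69 in sgC. VIM was at 22.85 CPM in sgZ1 replicate 2 and at 21.14 in sgZ3 replicate 3, and SPARC at 64.19 and 66.71 CPM.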

How the results depend on the processing

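Genes called over both guides numbered 7409. Scaling by RLE, upper quartile or totals, no filter, DESeq2, a threshold of 0.01, a mean of at least 10 CPM and length and GC offsets gave 5484 to 7578. Leaving out 1 library gave 5875 to 7794 over both guides, 4202 to 6027 with sgZ1, 6376 to 8585 with sgZ3 and 6641 to 8056 between guides; where a guide kept 1 library, it was taken to vary like the other groups. With all 9 libraries the counts were 4885, 3807, 5355 and 4209. With 1 knockout group of 4, 1064 of 14254 tested genes were called over both guides, 594 higher and 470 lower. Higher were 32 of 61 MYC growth targets, 16 of 61 small-subunit and 19 of 59 large-subunit assembly genes, 16 of 49 replication genes, 7 of 32 chaperones, 8 of 73 mitochondrial ribosomal and 1 of 58 oxidative phosphorylation genes and 0 of the ribosomal protein genes, and 4 of 31 ATF4 genes were lower; ZNF692 then missed the threshold, as did DKK1, HAS3, ULBP1 and RELN. Whether replicate numbers pair the libraries could not be settled. Deviations of same-numbered libraries from their group mean correlated at -0.0417 to 0.115, and those of other pairs at -0.115 to 0.115. Where a guide has 2 libraries, their deviations mirror each other, so the check is weak. With a replicate block 7383 genes were called over both guides, 5496 with sgZ1, 7738 with sgZ3 and 6640 between guides. Among named genes, counted once per gene and alternative fit, 5121 values kept their call or lack of one, 574 lost the call and 21 gained one. In 12 the sign changed with a call in at least 1 of the fits compared. Changes of sign without a call in either were not counted. With length and GC offsets, values changed sign to 0.0951 in DDX52, 0.0854 in RIOK2, 0.0722 in TAF1D, 0.057 in EIF5B, 0.00806 in SC5D, 0.0185 in MDM2, 0.0137 in ZMAT3, 0.111 in DNAJC10, 0.00318 in PSMC6, 0.0283 in ETV1 and -0.0707 in FTL, and with 1 knockout group EIF5B changed to 0.102; the cause was not tested.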
